A study of Saccharomyces cerevisiae with 18 samples.

Results

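The nuclear-encoded genes of the mitochondrial respiratory chain and the ATP synthase were followed in budding yeast carrying ten1-31, a temperature-sensitive allele of TEN1, and in wild type (WT). Ten1 acts at telomeres together with Cdc13 and Stn1, and the study, by its title, concerns these proteins and RNA polymerase II. The genes were chosen by name and by role: 15 genes of the ATP synthase, 9 of the cytochrome bc1 complex, 2 for cytochrome c, 9 of cytochrome c oxidase, 4 of succinate dehydrogenase and 3 for the NADH dehydrogenases of the inner membrane. Of these 42 genes, 38 had a row in the count table of 5143 rows, and 37 passed the filter on low counts together with 5096 other rows.

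The groups were 3 RNA-seq libraries of ten1-31 and 3 of WT. Both genotypes were pre-grown at 25 °C and then kept at 34 °C for close to 5 h, so the mutant and WT shared the warm shift. The labels describe the material only as yeast culture and give no strain background, batch or day. They do not state that the replicates came from separate cultures, so p-values measure the spread between these libraries, which may be technical. The other 12 libraries of the series, ChIP and input DNA, were not analysed here.

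Yeast has no proton-pumping NADH dehydrogenase complex. Single-polypeptide NADH dehydrogenases and succinate dehydrogenase pass electrons to coenzyme Q, the bc1 complex passes them to cytochrome c, and cytochrome c oxidase reduces oxygen with them. The proton gradient so built up drives the ATP synthase. Most of these nuclear genes are held low on glucose and are activated by the Hap2/3/4/5 complex when respiration is needed, with Hap4 as the regulated subunit.

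Library totals ranged from 10469608 to 14442999 counts, and median counts per row from 817 to 1057. Levels are given as CPM (counts per 1000000 of the TMM-scaled library size), and a gene was called when its adjusted p in edgeR's quasi-likelihood test was under 0.05. Of the 5133 rows tested, 50.5% were called, 24.3% higher in ten1-31 and 26.2% lower. The called rows split 48.2% higher with TMM scaling, 60.4% higher when library size was the only scaling and 40.7% higher with upper quartile scaling. Libraries of one genotype were not equally alike: WT replicates 1 and 2 had the largest chi-square per degree of freedom of all replicate pairs, 72.0, and the smallest, 5.33, was between ten1-31 replicates 1 and 2.

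Of the 37 genes tested, 9 were higher in ten1-31 and 0 lower (edgeR). The share called higher, 24.3%, equals the 24.3% of all rows, so in this test the count of higher genes is no more than the background. Of all rows, 26.2% were lower. At an unadjusted p under 0.05, 10 of the 37 genes were higher and 0 lower, with no share over all rows taken at that threshold. DESeq2 called 12 of them higher and 0 lower (2633 rows called, 50.2% of these higher). limma-voom called 9 higher and 0 lower (2581 rows called, 48.9% of these higher). With replicate number as a block, edgeR called 19 of the 37 higher (2630 rows called, 49.8% of these higher). The percentages beside the DESeq2, limma-voom and block counts are of called rows, not of all rows tested. With the block, the share of the 37 genes called higher was above that of all rows tested. The genes that DESeq2 added were CYT1, COX13 and SDH2. The block added these and QCR7, COX7, COX8, SDH3, SDH4, ATP19 and TIM11. The median log2 fold change of the 37 genes was 0.29, against -0.0038 over all rows tested. Of the 37 values 31 were above 0, beside 2545 of the 5133 over all rows tested. The 9 genes called were CYC7, SDH1, NDE1, ATP7, COR1, QCR2, CYC1, ATP3 and ATP18. For 9 genes every ten1-31 library was above every WT library, as in 29.0% of all rows, and for 0 genes it was the other way round. Over all rows, 60.5% had no overlap in one direction or the other. In bulk cultures, a higher level in each cell cannot be told apart from more cells at a high level.

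**Figure D1:**
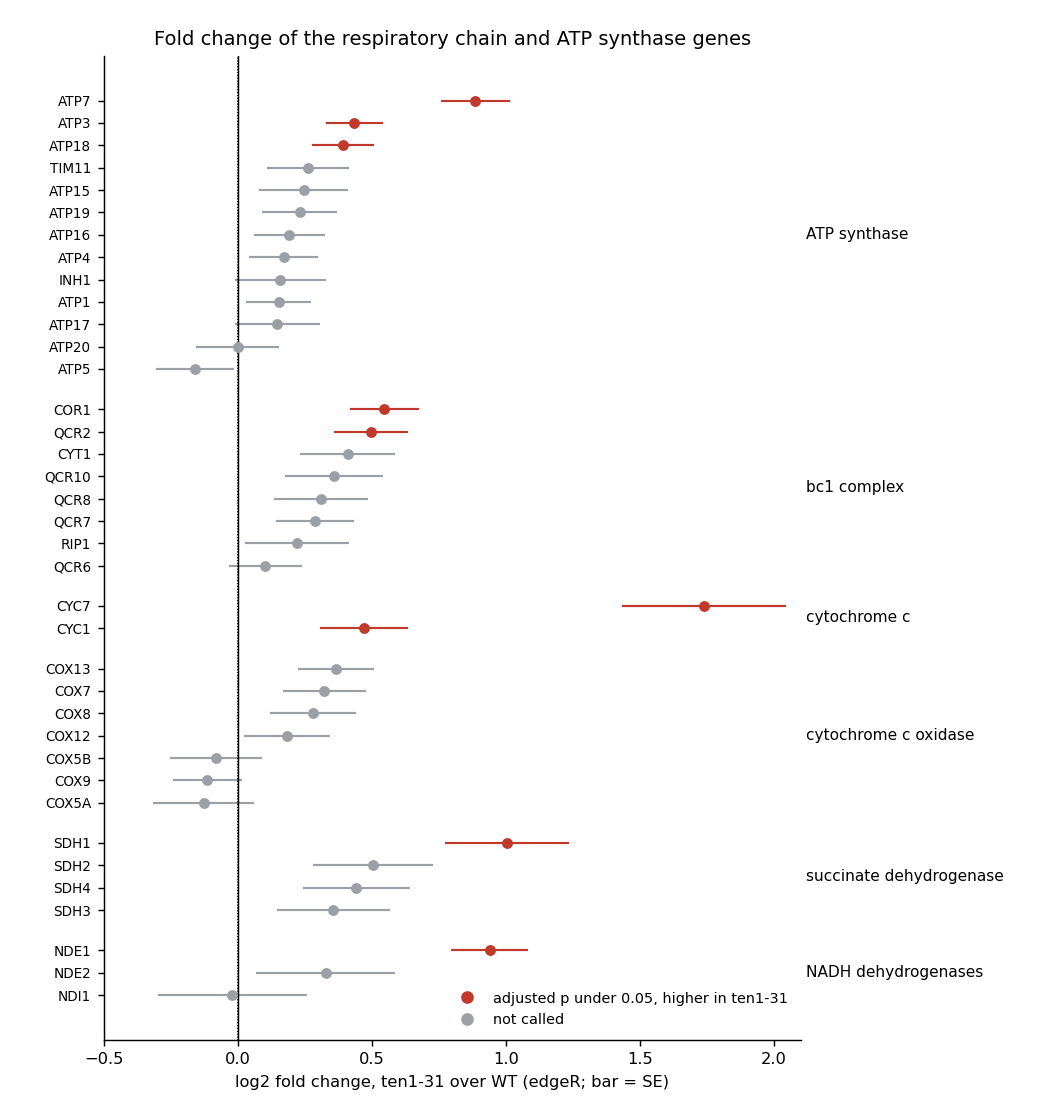
Log2 fold change of ten1-31 over WT for the 37 genes tested, grouped by complex (x axis; bars are SE from edgeR, n = 3 libraries per genotype); red points were called higher, grey points were not called, and the dotted line is the median of all rows. CYC7, SDH1, NDE1 and ATP7 lie farthest to the right, and the 7 cytochrome c oxidase genes hold no red point.

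The WT libraries were not alike in these genes. WT replicate 1 was the lowest of the 3 WT libraries for 37 of the 37 genes, against 44.4% of all rows tested, and WT replicate 2 was the highest of them for 35. Of the ten1-31 libraries, replicate 1 was the lowest for 35 genes. The median deviation of the 37 genes from the mean of all 6 libraries was -0.02, 0.18 and 0.27 on the log2 scale in ten1-31 replicates 1, 2 and 3, against -0.53, 0.12 and -0.06 in WT replicates 1, 2 and 3. WT replicate 2 exceeded ten1-31 replicate 1 for 25 of the 37 genes, so most single genes overlapped between the genotypes. A list of general stress genes ranked the WT libraries in the same way, with median deviations of -0.87, 0.03 and -0.32 in WT replicates 1, 2 and 3. In ten1-31 replicates 1, 2 and 3 the list was at 0.43, 0.45 and 0.38, without the rise from replicate 1 to 3 of the respiratory genes. The part of the stress genes in the values of the respiratory genes was not tested. Without WT replicate 1 the median log2 fold change of the respiratory genes was 0.11, with 8 genes called higher (2974 rows called, 47.9% of these higher). ATP5 was called lower in that fit (log2 fold change -0.31, edgeR, adjusted p = 0.0345). QCR9 was also counted as lower there, but it passed the filter on low counts only through its 13 and 19 counts in WT replicates 2 and 3, so that call carries no support. The medians of the ATP synthase, bc1 and cytochrome c oxidase genes were then 0.07, 0.13 and 0.02. Those of succinate dehydrogenase and the NADH dehydrogenases were 0.28 and 0.10. Unlike in the main test, QCR9 entered this bc1 median and the 0.11 over all respiratory genes. Without WT replicate 2 the median over all the respiratory genes was 0.41 with 17 called higher, and without WT replicate 3 it was 0.34 with 5 called higher.

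**Figure D2:**
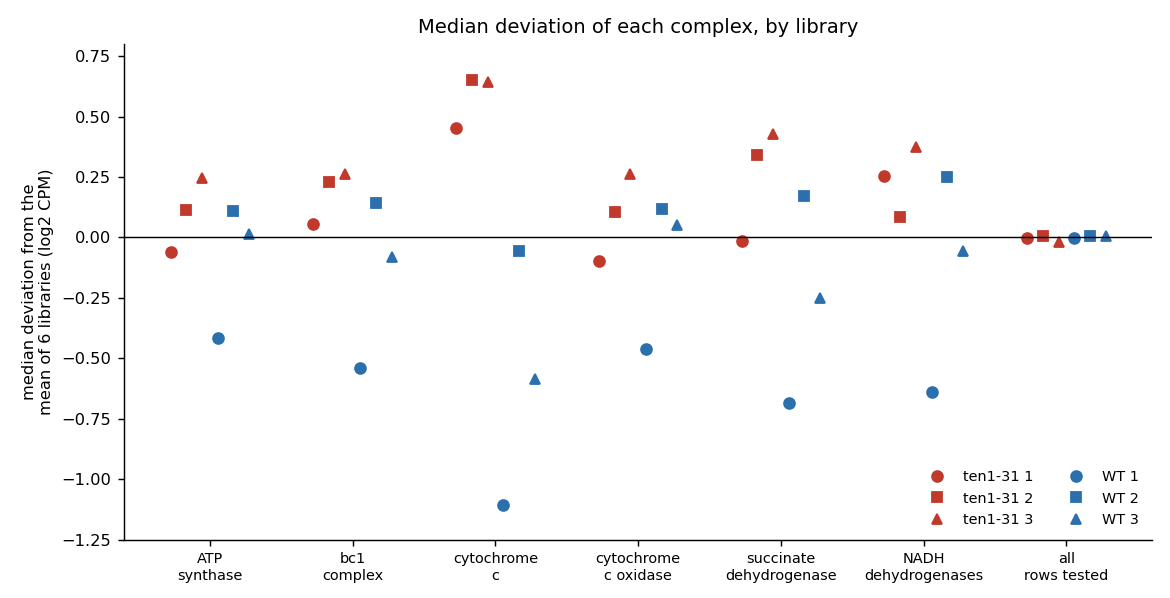
Median deviation of each complex from the mean of the 6 libraries (y axis, log2 CPM) in ten1-31 (red) and WT (blue) libraries, marked by replicate number; all rows tested are at the right. WT replicate 1 is the lowest library in every complex, at -0.41 for the ATP synthase and -1.11 for cytochrome c, while all rows stay near 0.

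Values by complex are given side by side, with no test between complexes. The median log2 fold change was 1.10 for the 2 cytochrome c genes, 0.47 for the 4 succinate dehydrogenase genes, 0.33 for the 8 bc1 genes tested, 0.33 for the 3 NADH dehydrogenase genes, 0.19 for the 13 ATP synthase genes tested and 0.18 for the 7 cytochrome c oxidase genes tested. Summed over its genes, succinate dehydrogenase reached 1201 ± 193 CPM in ten1-31 and 747 ± 228 CPM in WT (SD, n = 3 each). The bc1 complex summed to 3166 ± 252 CPM in ten1-31 and 2423 ± 500 CPM in WT (SD, n = 3 each). Cytochrome c oxidase summed to 1051 ± 119 CPM in ten1-31 and 959 ± 194 CPM in WT (SD, n = 3 each), a difference within the spread of either genotype.

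Electrons enter the chain through the NADH dehydrogenases. NDE1 (YMR145C, chromosome XIII, positions 554793 to 556475), the main dehydrogenase for cytosolic NADH on the outer face of the inner membrane, had 491, 602 and 600 CPM in ten1-31 replicates 1 to 3, against 261, 358 and 265 CPM in WT replicates 1 to 3. Every ten1-31 library lay above every WT library. Its level was 564 ± 63.8 CPM in ten1-31 and 295 ± 54.7 CPM in WT (SD, n = 3 each), and edgeR put its log2 fold change at 0.94 (SE 0.14; adjusted p = 0.00136). NDI1, which oxidises NADH inside the matrix, did not follow it. NDI1 had 99.5, 126 and 141 CPM in ten1-31 replicates 1 to 3, against 76.5, 178 and 118 CPM in WT replicates 1 to 3, and edgeR put its log2 fold change at -0.02 (SE 0.28; adjusted p = 0.958). The WT libraries of NDI1 enclosed all 3 ten1-31 libraries. NDE2, the second external enzyme, was scarce in both genotypes, at 77, 49 and 92 counts in ten1-31 replicates 1 to 3 and 42, 69 and 63 counts in WT replicates 1 to 3. Per kilobase of gene, NDE2 was at 3.48 CPM in ten1-31 and 2.82 CPM in WT, beside 335 CPM in ten1-31 and 175 CPM in WT for NDE1.

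The ratio of NDE1 to NDE2 counts within a library was 81.1, 131 and 91.2 in ten1-31 replicates 1 to 3, against 84.1, 59.3 and 54.7 in WT replicates 1 to 3. Its log2 value was 0.61 higher in ten1-31 (two-sided exact permutation test, p = 0.2). With 3 libraries against 3 this test cannot go below 0.1. Adding 5 counts to each gene in place of 0.5 gave a difference of 0.63 and the smallest possible p, 0.1.

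Succinate dehydrogenase, which also catalyses a step of the citric acid cycle, has a flavoprotein (SDH1), an iron-sulfur protein (SDH2) and membrane anchors (SDH3, SDH4). SDH1 (YKL148C, chromosome XI, positions 169207 to 171129) had 478, 644 and 648 CPM in ten1-31 replicates 1 to 3, against 213, 403 and 267 CPM in WT replicates 1 to 3. Of the WT libraries, replicate 2 came closest to the mutant without reaching it. In edgeR SDH1 stood at 1.004 on the log2 scale (SE 0.23, adjusted p = 0.00832), a call lost when chromosome medians were removed (edgeR, adjusted p = 0.0525). The other subunits were not called: SDH2 stood at 249 ± 46.2 CPM in ten1-31 and 176 ± 54.0 CPM in WT, SDH3 at 225 ± 33.6 CPM in ten1-31 and 176 ± 50.8 CPM in WT, and SDH4 at 137 ± 17.5 CPM in ten1-31 and 101 ± 28.8 CPM in WT (SD, n = 3 each). Their log2 fold changes were 0.50, 0.36 and 0.44, with edgeR adjusted p-values between 0.0949 and 0.194. In each of these 3 genes WT replicate 2 was above ten1-31 replicate 1, and without WT replicate 2 all 3 passed the threshold (edgeR, adjusted p from 0.00998 to 0.0489). SDH2 also passed with DESeq2 (adjusted p = 0.0407). With replicate number as a block, SDH2, SDH3 and SDH4 passed (edgeR, adjusted p = 0.00897, 0.0272 and 0.0153).

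**Figure D3:**
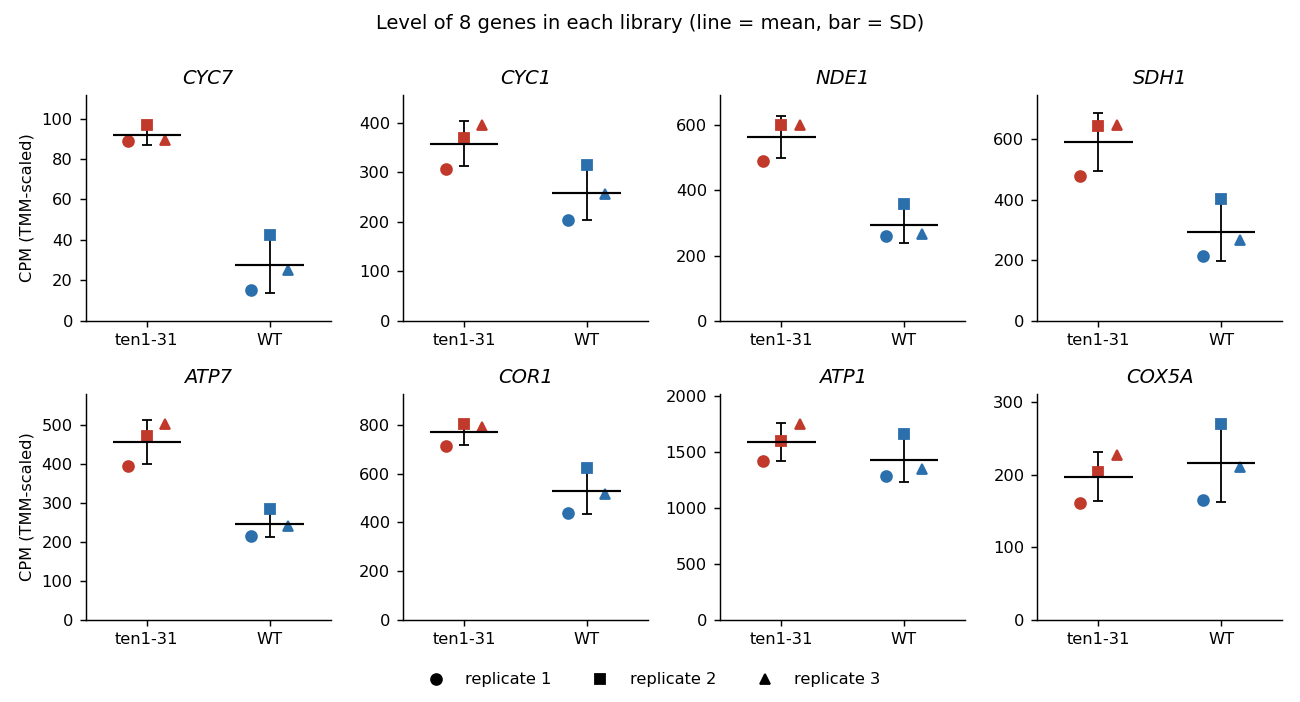
CPM of 8 genes in each library (y axis from 0), ten1-31 in red left of WT in blue, with marker shape for the replicate number, a line for the mean and a bar for the SD (n = 3). NDE1, SDH1, ATP7, COR1 and CYC7 separate the genotypes, while CYC1, ATP1 and COX5A overlap, and WT replicate 1 is the lowest WT point in every panel.

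In the bc1 complex, the core proteins COR1 and QCR2 rose. COR1 (YBL045C, chromosome II, positions 134143 to 135516) had 712, 805 and 789 CPM in ten1-31 replicates 1 to 3, against 439, 624 and 518 CPM in WT replicates 1 to 3, and edgeR put its log2 fold change at 0.55 (SE 0.13; adjusted p = 0.00946). QCR2 (YPR191W, chromosome XVI, positions 919381 to 920487) had 654, 750 and 778 CPM in ten1-31 replicates 1 to 3, against 436, 622 and 487 CPM in WT replicates 1 to 3, and edgeR put its log2 fold change at 0.50 (SE 0.14; adjusted p = 0.0184). Both genes separated the genotypes. QCR2 missed the threshold without ten1-31 replicate 2, ten1-31 replicate 3 or WT replicate 3 (edgeR, adjusted p from 0.0573 to 0.0807).

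The catalytic subunits of the bc1 complex were not called by edgeR with genotype as the only term. CYT1, the cytochrome c1 gene, was at 382 ± 52.8 CPM in ten1-31 and 288 ± 69.1 CPM in WT (SD, n = 3 each), which is 0.41 on the log2 scale (edgeR, adjusted p = 0.0875; DESeq2, adjusted p = 0.0433). RIP1, the Rieske iron-sulfur protein gene, was at 321 ± 34.0 CPM in ten1-31 and 275 ± 76.6 CPM in WT (SD, n = 3 each), which is 0.22 on the log2 scale. The small subunits QCR6, QCR7, QCR8 and QCR10 had log2 fold changes of 0.10, 0.29, 0.31 and 0.36, and each overlapped between the genotypes. QCR9, another small subunit, had 8, 1 and 2 counts in ten1-31 replicates 1 to 3 and 2, 13 and 19 counts in WT replicates 1 to 3. The lowest count of any other bc1 gene in a library was 1069, and QCR9 was below the filter. Without WT replicate 2, CYT1, QCR7, QCR8 and QCR10 passed the threshold (edgeR, adjusted p from 0.0105 to 0.0362). With replicate number as a block, CYT1 and QCR7 passed (edgeR, adjusted p = 0.0151 and 0.0444).

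Cytochrome c is made from CYC1, the aerobic isoform, and CYC7, the isoform known for its relative abundance under low oxygen and stress. CYC7 (YEL039C, chromosome V, positions 79636 to 79977) had 88.8, 97.1 and 89.3 CPM in ten1-31 replicates 1 to 3, against 15.3, 42.6 and 25.1 CPM in WT replicates 1 to 3. The ten1-31 libraries were close together and the WT libraries wide apart, and they did not overlap. In edgeR CYC7 stood at 1.74 on the log2 scale (SE 0.31, adjusted p = 0.0026), or 3.34-fold, the largest among the 37 genes. CYC1 (YJR048W, chromosome X, positions 526335 to 526664) had 307, 370 and 396 CPM in ten1-31 replicates 1 to 3, against 204, 315 and 256 CPM in WT replicates 1 to 3. WT replicate 2 lay above ten1-31 replicate 1, and in edgeR the gene stood at 0.47 on the log2 scale (SE 0.16, adjusted p = 0.043). The CYC1 call was lost with upper quartile scaling (edgeR, adjusted p = 0.0748) and without WT replicate 1, WT replicate 3, ten1-31 replicate 2 or ten1-31 replicate 3 (edgeR, adjusted p from 0.0731 to 0.128).

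The balance of the isoforms can be read within each library. The CYC1 to CYC7 count ratio was 3.46, 3.81 and 4.44 in ten1-31 replicates 1 to 3, against 13.3, 7.39 and 10.2 in WT replicates 1 to 3. All ten1-31 ratios were below all WT ratios, with a log2 difference of -1.37 (two-sided exact permutation test, p = 0.1, the smallest that 3 against 3 libraries allow). This ratio is taken within a library and does not depend on the scaling of libraries. The isoforms are similar in sequence, and how the counting treated reads that could match both is not stated.

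Cytochrome c oxidase had 0 of its 7 tested genes called (edgeR, genotype as the only term). At an unadjusted p under 0.05 there was 1, COX13, which DESeq2 also called (adjusted p = 0.0313) and limma-voom did not. With replicate number as a block, COX7, COX8 and COX13 passed the threshold (edgeR, adjusted p = 0.0247, 0.0323 and 0.0192). COX13, the gene of a small peripheral subunit, had 238, 259 and 266 CPM in ten1-31 replicates 1 to 3, against 154, 233 and 205 CPM in WT replicates 1 to 3, and edgeR put its log2 fold change at 0.37 (SE 0.14; adjusted p = 0.0642). It was the only gene outside the 9 called whose genotypes did not overlap. COX7, COX8 and COX12, small structural subunits, had log2 fold changes of 0.32, 0.28 and 0.18, and COX9 had -0.11. COX4 and COX6, without a row, were not analysed here.

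COX5A and COX5B encode alternative forms of one subunit, COX5A the aerobic and COX5B the hypoxic form. COX5A had 161, 203 and 228 CPM in ten1-31 replicates 1 to 3, against 166, 270 and 211 CPM in WT replicates 1 to 3. COX5B had 72.0, 74.0 and 98.3 CPM in ten1-31 replicates 1 to 3, against 68.0, 101 and 89.9 CPM in WT replicates 1 to 3. Both pairs of groups overlapped, with log2 fold changes of -0.13 ± 0.19 for COX5A and -0.08 ± 0.17 for COX5B (SE; edgeR, adjusted p = 0.597 and 0.713). The COX5A to COX5B count ratio was 2.23, 2.74 and 2.31 in ten1-31 replicates 1 to 3, against 2.43, 2.67 and 2.35 in WT replicates 1 to 3, and the log2 values differed by -0.04 (two-sided exact permutation test, p = 0.7). The sign of that small difference turned without ten1-31 replicate 1 and without WT replicate 2, to 0.02 in each case.

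The ATP synthase consists of a catalytic F1 head, a membrane part and stalks that join them. ATP7 (YKL016C, chromosome XI, positions 407465 to 407989), a subunit of the peripheral stalk, had 394, 471 and 503 CPM in ten1-31 replicates 1 to 3, against 215, 285 and 242 CPM in WT replicates 1 to 3. The groups were well apart, and edgeR put its log2 fold change at 0.89 (SE 0.13; adjusted p = 0.00116), or 1.85-fold. ATP3 (YBR039W, chromosome II, positions 315575 to 316510), the gamma subunit of the central stalk, had 452, 494 and 503 CPM in ten1-31 replicates 1 to 3, against 316, 411 and 345 CPM in WT replicates 1 to 3, and edgeR put its log2 fold change at 0.43 (SE 0.11; adjusted p = 0.0114). ATP18 (YML081C-A, chromosome XIII, positions 103983 to 104162), a small membrane subunit, stood at 174 ± 9.65 CPM in ten1-31 and 132 ± 20.0 CPM in WT (SD, n = 3 each), and edgeR put its log2 fold change at 0.39 (SE 0.11; adjusted p = 0.0234). All 3 genes separated the genotypes. ATP3 missed the threshold without WT replicate 3 (edgeR, adjusted p = 0.0543). ATP18 missed it with upper quartile scaling, and also when ten1-31 replicate 2, ten1-31 replicate 3 or WT replicate 3 was left out (edgeR, adjusted p from 0.0505 to 0.0708).

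The other 10 ATP synthase genes tested were not called with genotype as the only term. With replicate number as a block, TIM11 and ATP19 passed the threshold (edgeR, adjusted p = 0.0331 and 0.0402). ATP1, the alpha subunit of F1, had 1419, 1601 and 1756 CPM in ten1-31 replicates 1 to 3, against 1289, 1659 and 1353 CPM in WT replicates 1 to 3, and edgeR put its log2 fold change at 0.15 (SE 0.12; adjusted p = 0.325). The genotypes overlapped, with WT replicate 2 above ten1-31 replicates 1 and 2. ATP5, the stalk protein that joins F1 to the peripheral stalk, stood at 271 ± 30.2 CPM in ten1-31 and 303 ± 55.5 CPM in WT (SD, n = 3 each), the lowest log2 fold change of the 37 genes at -0.16 (edgeR, adjusted p = 0.381). ATP4, another subunit of the peripheral stalk, stood at 0.17, between ATP5 and ATP7. ATP15 and ATP16 of the central stalk had 0.24 and 0.19, and the membrane genes ATP17, ATP19, ATP20 and TIM11 had 0.15, 0.23, -0.0011 and 0.26. INH1, the inhibitor that blocks ATP hydrolysis by the enzyme, had 106, 118 and 139 CPM in ten1-31 replicates 1 to 3, against 82.0, 127 and 118 CPM in WT replicates 1 to 3, and edgeR put its log2 fold change at 0.16 (SE 0.17; adjusted p = 0.462). ATP2, the beta subunit, and ATP14, without a row, were not analysed here.

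Levels per kilobase of gene set genes beside each other only roughly, as the genomic span was used without correction for fragment length. ATP18 spans 180 bp and ATP1 1638 bp. Among the ATP synthase genes, ATP1 and ATP18 were at 972 and 964 CPM per kilobase in ten1-31 and at 875 and 736 in WT, whereas ATP20 was at 218 in both genotypes. ATP7 was at 869 CPM per kilobase in ten1-31 and 470 in WT, so that it stood beside ATP4 and ATP5 in WT, which were at 482 and 474, and above them in ten1-31, where they were at 543 and 424. CYC1 was at 1084 CPM per kilobase in ten1-31 and 782 in WT, and CYC7 at 268 in ten1-31 and 80.8 in WT. SDH1 was at 307 CPM per kilobase in ten1-31 and 153 in WT, beside 311 in ten1-31 and 220 in WT for SDH2. These values carry the same relative spread between libraries as the CPM above.

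Some of the genes lie on chromosomes whose rows were shifted as a whole. The median log2 fold change was 0.36 over 236 rows of chromosome VIII, 0.38 over 174 rows of chromosome IX and 0.42 over 286 rows of chromosome XI, while the medians of the other 13 chromosomes lay between -0.09 and 0.02. On chromosome XI, 67.1% of the rows were called higher. SDH1, ATP7 and SDH3 lie on chromosome XI, QCR10 on chromosome VIII and COX5B on chromosome IX. Relative to the median of their chromosome, SDH1 was at 0.58, ATP7 at 0.46, SDH3 at -0.07, QCR10 at 0.0028 and COX5B at -0.46. The source of these shifts was not tested.

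When each library was centred on the median of each chromosome, in an analysis added after these shifts were seen, ATP7 stayed called at a log2 fold change of 0.45 (edgeR, adjusted p = 0.0119). SDH1 was no longer called, at 0.57 (edgeR, adjusted p = 0.0525), and COX5B was called lower, at -0.50 (edgeR, adjusted p = 0.0183). QCR7, CYT1, COX13 and SDH4 were then called higher (edgeR, adjusted p from 0.0275 to 0.0467). In all, 12 genes were called higher and 1 lower, with a median log2 fold change of 0.31. Over all rows, this centred fit called 2507, of which 49.8% were higher. Among the 32 genes tested on the other 13 chromosomes, 7 had been called higher without the centring, with a median of 0.27; of all rows on those chromosomes, 19.0% had been called higher. Within ten1-31, chromosome VIII was uneven, with median deviations of 0.26, 0.11 and -0.37 in replicates 1, 2 and 3. QCR10 had 149, 146 and 125 CPM in ten1-31 replicates 1 to 3, the lowest in replicate 3, against 78.1, 135 and 115 CPM in WT replicates 1 to 3.

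**Figure D4:**
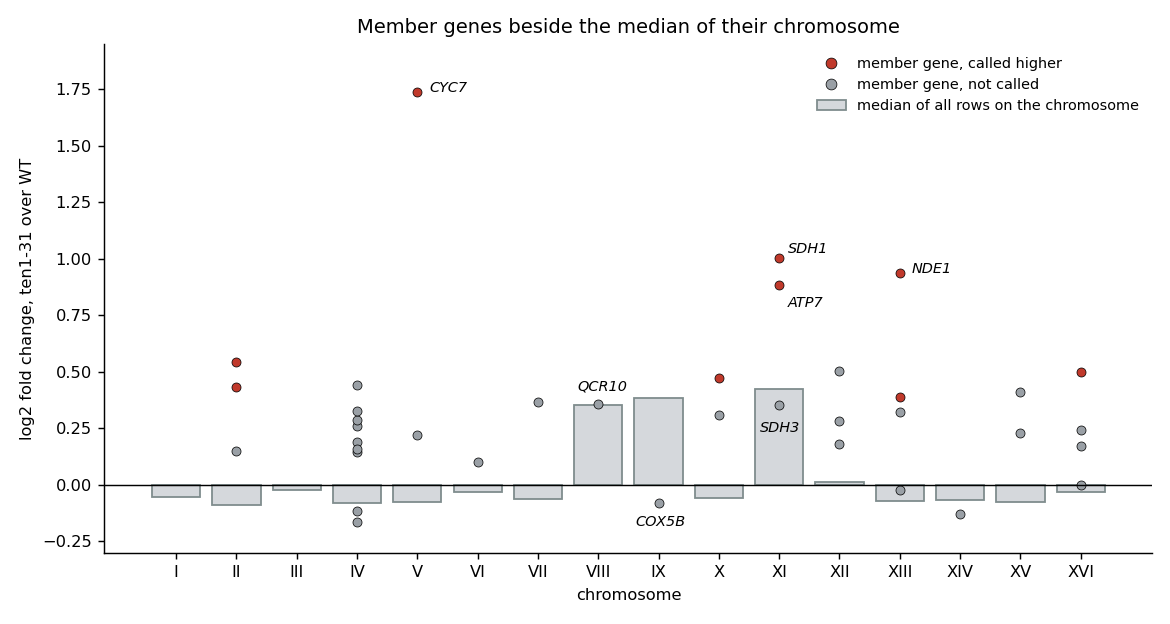
Log2 fold change of ten1-31 over WT (y axis) of the 37 genes by chromosome (x axis), with the median of all rows of the chromosome as a bar; red points were called higher and grey points were not called. Bars of chromosomes VIII, IX and XI reach 0.36 to 0.42; SDH3 and QCR10 lie close to the bar of their chromosome, COX5B well below its bar, and SDH1 and ATP7 above theirs.

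The regulators of the pathway were looked at next, from lists written with earlier results of these data known. Counts in these lists stand beside 24.3% of all rows called higher and 26.2% called lower. HAP4 (YKL109W), the activating subunit of the Hap complex, had 197, 232 and 244 CPM in ten1-31 replicates 1 to 3, against 74.5, 136 and 84.8 CPM in WT replicates 1 to 3. The genotypes did not overlap, and WT replicate 2 was again the highest WT library. This is 1.19 on the log2 scale (edgeR, adjusted p = 0.00284). HAP4 also lies on chromosome XI, and with the chromosome medians removed it was 0.76 (edgeR, adjusted p = 0.0132). The DNA-binding subunits did not move with it: HAP2 was at 13.8 ± 0.865 CPM in ten1-31 and 21.1 ± 1.90 CPM in WT, and HAP3 at 16.1 ± 1.59 CPM in ten1-31 and 26.01 ± 1.53 CPM in WT (SD, n = 3 each). Both fell, by 0.61 and 0.69 on the log2 scale (edgeR, adjusted p = 0.00249 and 0.00117). HAP5 was not called, at 20.4 ± 1.83 CPM in ten1-31 and 20.2 ± 0.337 CPM in WT (SD, n = 3 each). HAP1, the heme-dependent activator of CYC1 and CYC7, had no row.

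Of the repressors that act with oxygen and heme, MOT3 rose, at 44.7 ± 0.699 CPM in ten1-31 and 36.7 ± 1.32 CPM in WT (SD, n = 3 each; edgeR, adjusted p = 0.00991), a call lost without ten1-31 replicate 2 (edgeR, adjusted p = 0.0559). ROX1, the repressor of hypoxic genes, was at 46.1 ± 1.204 CPM in ten1-31 and 44.0 ± 4.87 CPM in WT (SD, n = 3 each; edgeR, adjusted p = 0.566). The general corepressor genes TUP1 and CYC8 had log2 fold changes of -0.11 and 0.17 and were not called. CYC8 passed the threshold without WT replicate 1 (edgeR, adjusted p = 0.00474) and when library size was the only scaling (edgeR, adjusted p = 0.0423).

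Assembly factors did not move as one. Of 21 genes tested for the assembly of cytochrome c oxidase, 3 were called higher and 1 lower, with a median log2 fold change of -0.08. COX23, a factor of the intermembrane space, was at 202 ± 40.03 CPM in ten1-31 and 128 ± 8.46 CPM in WT, and COX16 was at 17.3 ± 1.47 CPM in ten1-31 and 24.8 ± 2.92 CPM in WT (SD, n = 3 each). COX23 lies on chromosome VIII, and its log2 fold change of 0.66 was 0.29 with the chromosome medians removed. Of 11 genes for bc1 assembly and cytochrome maturation, 3 were higher and 1 lower. Among these, CYT2 and CYC3, the lyases that attach heme to cytochrome c1 and cytochrome c, rose by log2 fold changes of 0.98 and 0.82 (edgeR, adjusted p = 0.000716 and 0.00533). CYC3 was at 81.8 ± 6.09 CPM in ten1-31 and 46.4 ± 11.7 CPM in WT (SD, n = 3 each). CYT2 lies on chromosome XI and was at 0.54 with the chromosome medians removed. Of 9 ATP synthase assembly genes 1 rose, ATP10, with a log2 fold change of 0.43 (edgeR, adjusted p = 0.00392). Of 5 genes tied to succinate dehydrogenase assembly and flavin supply 1 was called, FLX1 at 0.41. FLX1 lies on chromosome IX, was at 0.0029 with the chromosome medians removed, and lost its call without ten1-31 replicate 3 (edgeR, adjusted p = 0.054).

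Heme and coenzyme Q supply the chain with cofactors. Of 8 heme synthesis genes, 1 rose and 1 fell. HEM13, the oxygen-requiring coproporphyrinogen oxidase, had 113, 109 and 112 CPM in ten1-31 replicates 1 to 3 and averaged 111 ± 2.03 CPM there, against 54.7 ± 2.97 CPM in WT (SD, n = 3 each; edgeR, adjusted p = 5.81e-05). HEM12, the preceding enzyme of the pathway, was at 88.6 ± 2.08 CPM in ten1-31 and 149 ± 7.40 CPM in WT (SD, n = 3 each; edgeR, adjusted p = 0.000164). Their log2 fold changes were 1.02 and -0.75. Of 9 coenzyme Q genes tested, 2 were higher and 2 lower, with CAT5, a hydroxylase of the pathway, at 0.57 and COQ10, a coenzyme Q-binding protein, at -0.38. Of 4 genes for ADP and phosphate carriers 1 was called, PET9, the main ADP/ATP carrier, at 978 ± 121 CPM in ten1-31 and 738 ± 66.6 CPM in WT (SD, n = 3 each; edgeR, adjusted p = 0.0176). That call was lost without ten1-31 replicate 2, ten1-31 replicate 3 or WT replicate 3 (edgeR, adjusted p from 0.0603 to 0.0784). Of 5 genes listed as other electron donors, 1 rose and 3 fell. Those that fell were DLD3, DLD2 and DLD1, with log2 fold changes of -0.77, -0.55 and -0.41.

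Genes that follow oxygen or carbon source were set beside the chain. Of 10 hypoxic genes tested, 3 were called higher and 1 lower, with a median log2 fold change of 0.22, and this list holds CYC7, COX5B and HEM13 as well. TIR3, a cell wall mannoprotein gene, was at 30.3 ± 1.31 CPM in ten1-31 and 8.64 ± 1.73 CPM in WT (SD, n = 3 each), which is 1.81 on the log2 scale (edgeR, adjusted p = 9.51e-05). TIR3 lies on chromosome IX and was at 1.41 with the chromosome medians removed. Of 15 glucose-repressed genes tested, 11 were called higher and 0 lower (edgeR), with a median of 1.02. Among those called, PCK1 and FOX2 lie on chromosome XI and SUC2 on chromosome IX, whose rows were shifted as a whole. At an unadjusted p under 0.05 the lower count was also 0, as it was by DESeq2 and limma-voom. MDH2, the cytosolic malate dehydrogenase of gluconeogenesis, was at 68.3 ± 5.88 CPM in ten1-31 and 18.9 ± 3.01 CPM in WT (SD, n = 3 each; edgeR, adjusted p = 5.45e-05). CAT2, a carnitine acetyltransferase, was at 39.4 ± 2.16 CPM in ten1-31 and 13.1 ± 2.27 CPM in WT (SD, n = 3 each; edgeR, adjusted p = 0.000104). The median deviation of the glucose-repressed genes was 0.50, 0.24 and 0.80 in ten1-31 replicates 1 to 3, against -0.94, -0.34 and -0.44 in WT replicates 1 to 3, with no overlap. WT replicate 1 was the lowest library here too. Of 15 general stress genes, 8 were called higher and 1 lower, with a median of 0.76, with HSP30, a membrane heat-shock protein, at 3.52 and GSY2, a glycogen synthase, at 1.01. The part of carbon source or stress in the values of the respiratory genes was not tested.

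**Figure D5:**
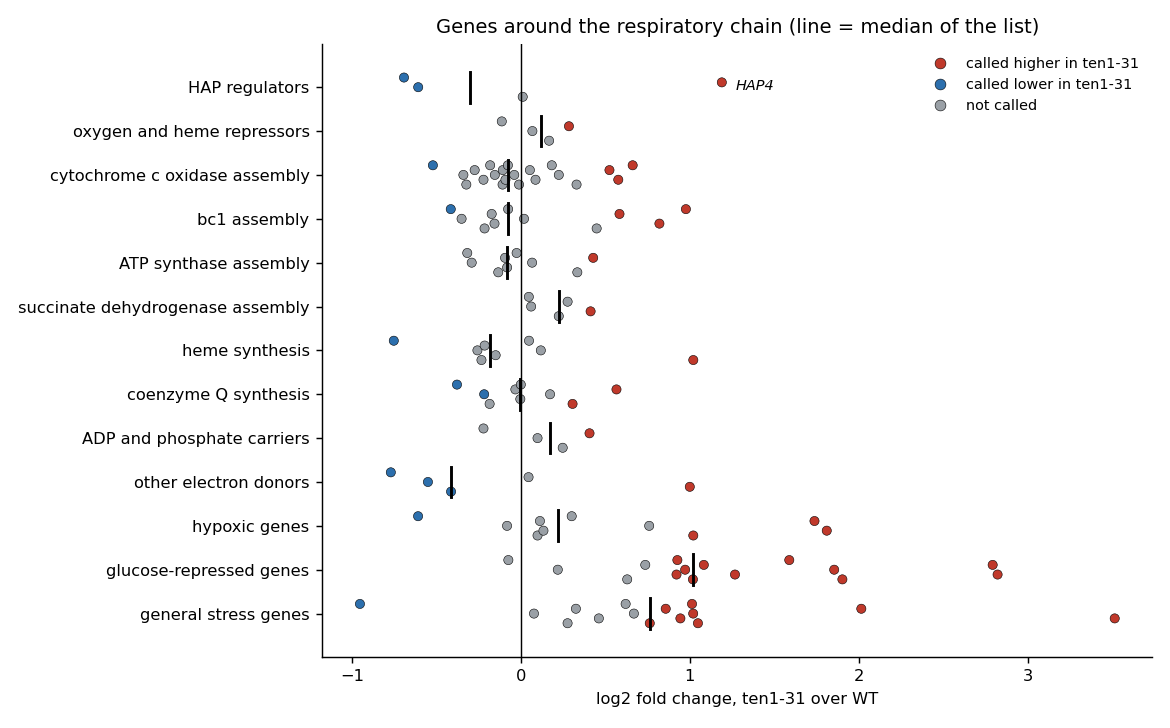
Log2 fold change of ten1-31 over WT (x axis) for genes around the respiratory chain, 1 list per row; red points were called higher, blue lower, grey not called, and the black line is the median of the list. The glucose-repressed list has its median at 1.02 with 11 of 15 genes called higher, while the assembly lists of cytochrome c oxidase, bc1 and ATP synthase have medians of -0.08.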

How the data were processed

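RNA-seq read counts per gene were analysed for 6 yeast libraries, 3 of ten1-31 and 3 of WT. The authors deposited 1 table of raw counts, with a column per library. Libraries were strand-specific and made from total RNA after ribosomal RNA had been removed, per the labels' protocols. The submitters' processing notes name FastQC, cutadapt, Trimmomatic, TopHat2, Bowtie2 and featureCounts and the builds R64 and sacCer3. How strand was set in counting, which annotation was used and whether low rows were dropped is not given in the sources used here, so counts of overlapping or similar genes are uncertain. The unit was read from the values.

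Symbols, lengths and coordinates are those of RefSeq for R64, to which 5112 of 5143 rows matched. A length is the genomic span of the gene, which in COX5B and QCR10 includes an intron. In all, 4 names stood on 2 rows each and none of them is a gene described here. Counts were tested with edgeR 4.0.16 in R 4.3.3 (quasi-likelihood test, TMM scaling, filterByExpr with minimum count 10 and minimum total 15, genotype as the only term), adjusted by Benjamini-Hochberg over 5133 rows. SE is the log2 fold change divided by the square root of F. Median deviations used log2 CPM with a prior count of 2. Ratios used counts plus 0.5. The procedure was tested on simulated counts with few changed rows, as many up as down, and no chromosome shifts. It was not tested for changes as broad as those seen here.

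The genes, lists and rule for naming genes were chosen with earlier results of these data known. Full values were given for the 2 called genes with the smallest p per complex, all genes of complexes with 3 or fewer, the isoform pairs and INH1; companion lists gave their 2 called genes with the smallest p. Others were named after their values were seen. Scaling was also tried by library size alone, by upper quartile and by the size factors of DESeq2. Further alternatives were other filters (none, a mean of at least 10 CPM), DESeq2 1.42.0, limma-voom (limma 3.58.1), a threshold of 0.01, a prior count of 5, a replicate block and leaving out each library. Leaving out repeated names and centring by chromosome were added after seeing the data. The 7 mitochondrially encoded subunit genes had no row. Library totals ran from 10469608 to 14442999 counts. The sources used here name no molecular identifiers, and the tests rest on the spread between libraries rather than on counting error.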

Additional observations from a re-analysis of the deposited data

How the results depend on the processing

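Of the 9 respiratory genes called higher, ATP7, COR1, CYC7 and NDE1 kept their call under every alternative run for them, and none of the 9 changed sign. The number called higher was 19 with the replicate block (49.8% of all called rows higher) and 5 at an adjusted p under 0.01 (1660 rows called, 48.2% higher). It was between 5 and 17 when single libraries were left out. The lowest was without WT replicate 3 (1887 rows called, 47.5% higher) and the highest without WT replicate 2 (2596 rows called, 48.5% higher). The main test called 2591 rows, so the match of the 9 genes to the background holds for that test and not for every setting. The number called lower was 0 to 2 when single libraries were left out, the 2 being ATP5 and the sparsely counted QCR9 without WT replicate 1, and 1 after centring by chromosome. Same-numbered libraries deviated together weakly (correlations 0.20, 0.21 and 0.09), but more than any of the 6 differently numbered pairs (-0.23 to 0.05). Among the 37 respiratory genes, replicate 1 was the lowest WT library for 37 and the lowest ten1-31 library for 35. Their highest median deviation was in replicate 2 for WT and in replicate 3 for ten1-31. Whether replicate number marks a shared batch was not tested, and the main test did not take the numbers as pairs. Blocking on replicate number gave 2630 calls, and the main test had also made 2475 of these. The exact p of the CYC1 to CYC7 ratio with the block was 0.25, the smallest it allows. With library size only, 60.4% of called rows were higher, and with upper quartile scaling 40.7%.

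Signs turned only for genes not called. ATP20 was 0.0089 with DESeq2 size factors, 0.0755 with library size only, 0.0023 with the CPM filter, 0.0084 by DESeq2, 0.0175 by limma-voom, 0.014 with the replicate block and 0.047 after centring. NDI1 was 0.0525 with library size only, 0.042 by limma-voom, 0.045 with the replicate block and 0.040 after centring. SDH3 was -0.078 after centring and HAP5 -0.0385 with upper quartile scaling. Leaving out single libraries gave ranges of -0.023 to 0.26 for ATP17, -0.16 to 0.094 for ATP20, -0.0096 to 0.28 for INH1, -0.016 to 0.24 for QCR6, -0.29 to 0.067 for COX5A, -0.25 to 0.047 for COX5B, -0.28 to 0.33 for NDI1, -0.064 to 0.044 for HAP5, -0.0145 to 0.14 for ROX1, -0.18 to 0.028 for TUP1 and -0.13 to 0.022 for the COX5A to COX5B log2 ratio. The cause was not tested. NDE2 and QCR9 had under 100 counts per library, so their values are imprecise. The reason for the low counts of QCR9 was not tested.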

Other observations

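Longer respiratory genes had somewhat higher fold changes. The log2 fold change and the log2 gene length had a Pearson r of 0.21 and a Spearman rho of 0.26 across the 37 genes, beside 0.11 and 0.17 across 5094 rows with a length. These are descriptions across genes that share libraries, and genes are not independent replicates. Of the 9 respiratory genes of at least 900 bp, a limit chosen with results known, 5 were called higher, with a median log2 fold change of 0.43. Of the 28 shorter ones, 4 were called higher, with a median of 0.25. Over all rows, 26.3% of those of at least 900 bp and 19.5% of the shorter ones were called higher, with medians of 0.02 and -0.08. Within the bc1 complex r was 0.64 over 8 genes, whereas within the ATP synthase it was -0.03 over 13 genes and within cytochrome c oxidase -0.33 over 7 genes. The part of gene length in these values was not tested.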
